A study of Mus musculus with 27 samples.

Results

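Expression of 37 genes of the DNA replication machinery was followed through development of the mouse retina, out of 38168 features in the expression table. The genes were chosen by name from the known apparatus, with earlier results of these data known, and all 37 were found and passed the filter on low values. They comprised 5 genes of origin licensing, 6 subunits of the replicative helicase, 3 genes of helicase activation, 6 polymerase and primase genes, 6 genes of the sliding clamp and its loader, 2 of single-strand binding, 2 of lagging strand processing, 4 of nucleotide supply, 2 of chromatin assembly, and the transcription factor E2f1.

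RNA came from whole retinas of wild type C57BL/6J mice, with no treatment or transgene, at embryonic day 14 (E14, 3 libraries), E17 (3), postnatal day 1 (P1, 4), P6 (3), P15 (4), P28 (4) and P60 (6). By the study's methods mice were of mixed sex up to P1 and male at later ages. Xist, the RNA of the inactive X chromosome of females, did not bear out a mixture in every early library: it measured 2.11, 112 and 627 CPM at E14, 404 to 595 CPM at E17, 1093.3 CPM in P1 library 3 against 1.26 to 1.59 CPM in the others, and at most 1.73 CPM from P6 on. The P60 libraries were not all alike. Counts were compared by a chi-square divided by its degrees of freedom, over features with enough reads in the pair. It was 8.36 to 21.49 between libraries 1 or 2 and libraries 3 to 6. Between 1 and 2 it was 3.29, and among 3 to 6 it was 4.62 to 9.31. The split was not clean, as library 6 differed by 8.36 from library 1 and by 9.31 from library 3. Libraries were made from pools of retinas, except that by the study's methods 4 of the P60 libraries came from single mice and 2 from pools of 3 mice. Libraries 1 and 2 and libraries 3 to 6 have these same numbers, but the labels do not say which libraries were pools. The kinds therefore cannot be matched to the libraries. Where samples shared a pool or a litter is not stated, so p-values measure the spread between these libraries. Libraries held 7077781 to 11332323 reads, and values are CPM, the reads of a feature scaled so that each library sums to nearly the same total (999814.1 to 999881.7). Nrl, a transcription factor of rods, measured 0.738 to 1.1 CPM at E14 and 355 to 403 CPM at P60, and lens markers summed to at most 5.49 CPM in any library. Retinal pigment epithelium markers summed to at most 15.8 CPM. In whole tissue, fewer cells of a type and less RNA per cell cannot be told apart.

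A cell copies its genome once per cycle. The origin recognition complex, with Cdc6 and Cdt1, loads the ring of Mcm2 to Mcm7 subunits onto DNA in G1, and geminin (Gmnn) then blocks reloading. In S phase the ring is activated with the GINS complex and Mcm10, DNA polymerase alpha with its primase lays down primers, and polymerases epsilon and delta extend them on a PCNA clamp that replication factor C places on the DNA. The E2F transcription factors drive many of these genes at the start of S phase. In the mouse retina progenitor cells divide from before birth into the first postnatal days, and the neurons and glia of the mature retina do not normally divide.

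Promoter windows of RefSeq (GRCm38.p6), 250 bases before to 50 from each annotated start, were at hand for 30 of the 37 members and for 27025 genes in all. The 7 members without a window were Gmnn, Mcm4, Gins1, Gins2, Pole, Prim2 and Rfc2. The windows were searched on both strands for the letters bound by E2F factors, spelled TTTCCCGC, TTTCGCGC, TTTGCCGC or TTTGGCGC, and 11 members held a match (36.7% of 30), against 2.6% of all genes. The 11 were Orc1, Cdc6, Cdt1, Mcm3, Mcm5, Mcm6, Mcm7, Pola1, Pold1, Rfc3 and Lig1. The letters GGGCGG were found in 22 members (73.3%) against 38.2% of genes, CCAAT in 18 against 41.1% of genes, and TTTGAA in 2 (6.67%) against 20.2%. Matches are descriptions of the letters and not of binding. The stretches before the start that lie outside annotated exons are shown for 4 members with a match and for Mcm10, whose course through the ages stood apart and whose window held none. Capitals mark the E2F letters on either strand, and each run is written 5′ to 3′ on the strand of its gene.

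Cdc6, chr11:98907982-98908150, plus strand: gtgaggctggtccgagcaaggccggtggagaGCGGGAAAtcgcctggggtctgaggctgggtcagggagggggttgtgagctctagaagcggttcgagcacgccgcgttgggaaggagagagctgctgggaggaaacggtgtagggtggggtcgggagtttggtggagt
Mcm5, chr8:75109259-75109508, plus strand: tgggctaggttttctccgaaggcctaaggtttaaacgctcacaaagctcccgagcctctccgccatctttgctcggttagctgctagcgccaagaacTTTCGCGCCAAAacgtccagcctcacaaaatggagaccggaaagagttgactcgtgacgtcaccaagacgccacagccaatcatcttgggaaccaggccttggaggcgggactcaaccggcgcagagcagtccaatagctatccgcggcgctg
Mcm6, chr1:128359706-128359955, minus strand: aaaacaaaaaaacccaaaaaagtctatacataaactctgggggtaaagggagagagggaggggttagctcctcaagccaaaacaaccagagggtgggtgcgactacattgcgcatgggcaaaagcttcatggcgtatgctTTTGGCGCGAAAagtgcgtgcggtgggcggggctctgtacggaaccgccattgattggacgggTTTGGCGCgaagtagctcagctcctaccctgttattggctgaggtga
Pola1, chrX:93632156-93632405, minus strand: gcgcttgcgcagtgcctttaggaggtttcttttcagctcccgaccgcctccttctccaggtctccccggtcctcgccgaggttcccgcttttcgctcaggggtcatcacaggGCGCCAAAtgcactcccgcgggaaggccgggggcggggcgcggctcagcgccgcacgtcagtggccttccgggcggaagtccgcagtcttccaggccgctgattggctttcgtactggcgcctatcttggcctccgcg
Mcm10, chr2:5012792-5013041, minus strand: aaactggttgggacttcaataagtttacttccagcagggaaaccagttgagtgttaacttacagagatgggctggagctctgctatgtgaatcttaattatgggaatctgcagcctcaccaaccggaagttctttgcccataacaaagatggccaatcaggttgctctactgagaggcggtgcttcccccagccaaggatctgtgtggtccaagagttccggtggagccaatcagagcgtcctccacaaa

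In Mcm5 a match on each strand overlapped, from 153 to 142 bases before the start. In Mcm6 an overlapping pair lay from 110 to 99 bases before the start and a further match from 47 to 40 bases before it. Cdc6 and Pola1 each held 1 match, from 138 to 131 bases before the start. Mcm10 held CCAAT 3 times, from 98 to 94 and from 23 to 19 bases before the start and at bases 32 to 36 counted from it. The last lies outside the run shown. The mature level of the 11 members with the E2F letters, as a share of the embryonic level, ran from 1.66% to 58.6% with a median of 9.74%, and that of the 19 members with a window but no match ran from 0.146% to 131% with a median of 19.8%. Both ranges cover steep and shallow falls, and the second ends with Rpa1, which was higher in mature retina. Rrm2 and Chaf1b, at or near 0 in mature retina, were among those without a match. A link between the letters and the fall was not tested.

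The first comparison asked how far expression of the apparatus had fallen in mature retina (P15, P28 and P60, 14 libraries) from embryonic retina (E14 and E17, 6 libraries), with each age given equal weight. Of the 37 members, 36 were lower in mature retina and 1, Rpa1, was higher, at an adjusted p under 0.05 by limma, where 40.4% of all 31760 features tested were called lower and 35.0% higher. At least 2-fold lower were 34 members, against 16.1% of features, and the median log2 fold change was -2.33 for the members and -0.06 for all features tested. In 36 members every mature library lay under every embryonic library, against 23.0% of features. Rpa1 was the member whose groups overlapped. The median member kept 15.2% of its embryonic CPM, 12 members kept under 5% and 24 under 20%.

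**Figure D1:**
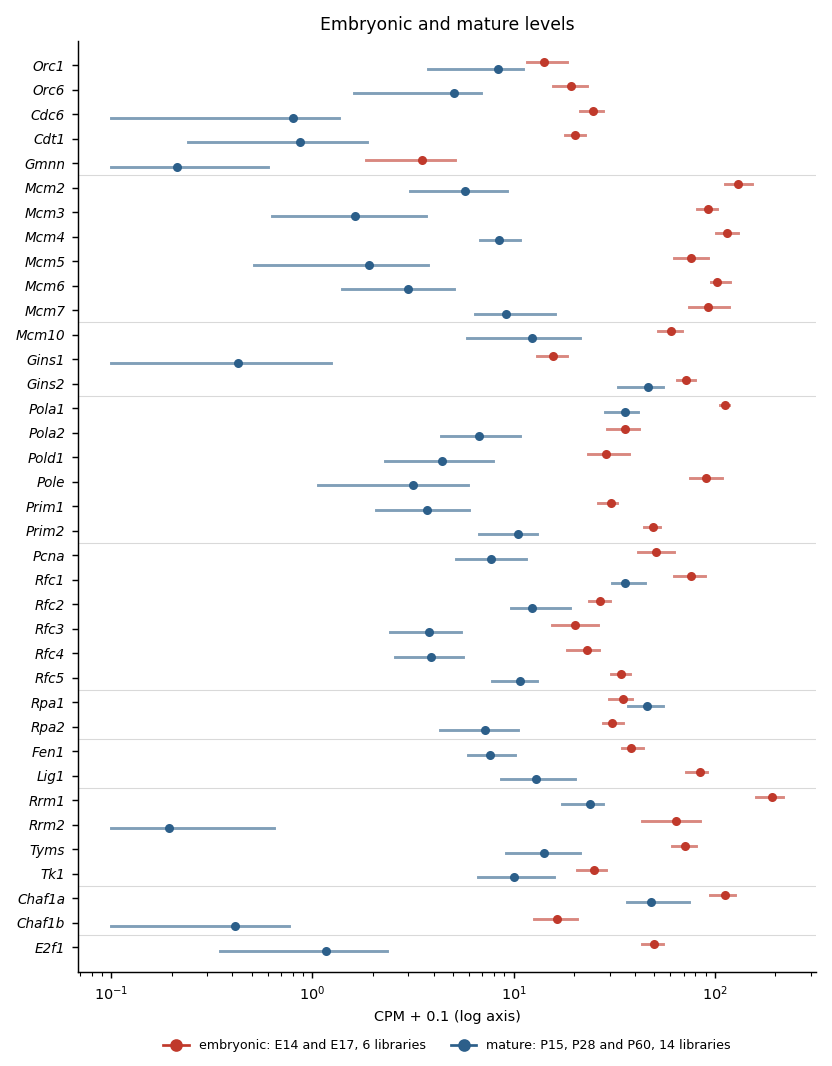
Levels of the 37 members in embryonic (red, 6 libraries) and mature (blue, 14 libraries) retina, as CPM + 0.1 on a log axis. Dots are means with each age weighted equally, bars run from the lowest to the highest library, grey lines separate the roles, and only the bars of Rpa1 overlap, with means of 34.9 CPM in embryonic and 45.8 CPM in mature retina.

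The fall was placed between neighbouring ages. As a share of the E14 level, the median member stood at 83.1% at E17, 76.4% at P1, 17.2% at P6, 11.3% at P15, 13.7% at P28 and 16.2% at P60. The step from P1 to P6 had the largest median change of the 6 steps. By limma 35 members were called lower and 0 higher, where 20.4% of features were called lower and 18.0% higher, and 30 members fell at least 2-fold, against 6.74% of features. Every P6 library lay under every P1 library in all 37 members, against 25.4% of features, including the 2 members that were not called, Gins2 and Rpa1. Markers of other cells moved at this step too: the rod genes Nrl and Pde6b rose (log2 fold changes 2.86 and 4.84), as did all 3 bipolar cell markers (median 5.65), all 3 ganglion cell markers fell (median -1.12), and Sox2 and Hes1, which progenitors and glia express, fell to 22.0% and 21.2% of P1. The part of a changing cell makeup in the fall was not tested. The median P6 level was 24.1% of that at P1, and the median log2 fold change was -1.91, against -0.03 for all features. All 35 calls of this step and all 37 of mature against embryonic retina kept an adjusted p under 0.05 in the 10 other fits tried and without any 1 library, except that Cdc6, Cdt1, Gmnn, Gins1, Rfc3 and Chaf1b did not pass the stricter filter of 1 of those fits, a mean of 10 CPM. The comparisons of neighbouring ages share libraries and are not independent of each other.

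**Figure D2:**
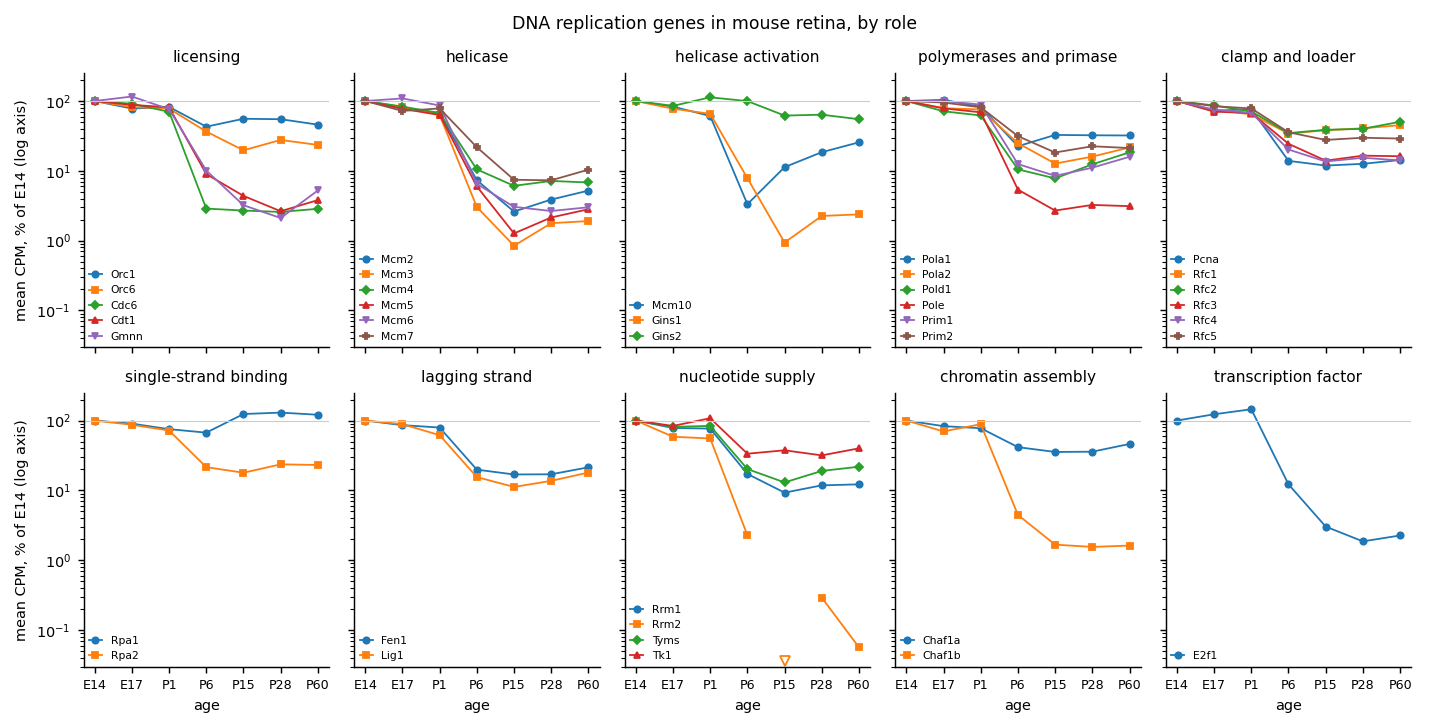
Mean CPM of each member at each age as a percentage of its E14 mean, on a log axis, in 1 panel per role, with an open triangle for Rrm2 at P15, where it had 0 reads in all 4 libraries. The median member fell from 76.4% at P1 to 17.2% at P6.

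Before birth and around it the changes were small. From E14 to E17, 3 members fell (Rrm2, Rfc1 and Rrm1) and 0 rose by limma, where 3.02% of features were called lower and 7.56% higher. The median log2 fold change of the members was -0.27. In 25 members every E17 library lay under every E14 library, against 16.2% of features, and a fit of these ages alone, which takes its spread from them, called 22 members lower, against 8.59% of features in that fit. Rrm1 was not called without E14 library 1 or 2 or E17 library 2, and Rrm2 not with a pseudocount of 0.1. Without P60 libraries 3 to 6 in the fit, 6 members were called lower. From E17 to P1, Pola1 and Lig1 fell and Gins2 rose, where 3.43% of features were called lower and 5.77% higher. Those 3 calls rested on single libraries. Without E17 library 2 or 3 or P1 library 2 or 4 the count lower was 0. Without E17 library 1 or 3 the count higher was 0, and Gins2 was not called without E17 library 1, 2 or 3. Without P60 libraries 3 to 6 the count lower was 4. The shares of all features called in these fits with libraries left out are not given here.

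From P6 to P15 the levels fell further in 20 members and rose in 3 (Mcm10, Pola1 and Rpa1), where 19.0% of features were called lower and 14.4% higher. The calls of Prim1, Rfc4 and Lig1 among the 20 were lost in some of the other fits or without single libraries. The lowest mean of a member was at P6 in 6 members, at P15 in 22, at P28 in 8 and at P60 in 1. Lowest at P6 were Orc1, Mcm10, Pola1, Rfc1, Rfc2 and Rpa1.

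The licensing genes fell to different depths. Cdc6, the loader ATPase that brings the helicase to origins, measured 24.7, 24.9 and 27.7 CPM at E14, 21.4 to 25.0 CPM at E17, and 19.4, 14.2, 21.7 and 16.8 CPM at P1. At P6 it measured 0.424, 0.973 and 0.827 CPM, and no mature library exceeded 1.25 CPM. The P6 level was 4.11% of that at P1, with a log2 fold change of -3.45 ± 0.23 (SE, adjusted p = 9.5e-14). No later step of Cdc6 was called. Cdt1, its partner in helicase loading, fell from 17.3 ± 1.69 CPM (SD, n = 4) at P1 to 1.91 ± 0.597 CPM (n = 3) at P6 and to 0.562 ± 0.292 CPM (n = 4) at P28. Geminin was low at all ages, at 3.15 ± 0.744 CPM (n = 3) at E14 and 1 read or none per library at P28, so the size of its fall is limited by depth. The log2 ratio of Gmnn to Cdt1 was 1.68 higher in mature libraries (exact permutation test, two-sided, p = 5.2e-05, adjusted 1.0e-04), but with a pseudocount of 0.1 the difference was 0.57 (p = 0.22).

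Of the origin recognition complex, the listed subunits were Orc1 and Orc6. Orc1, which binds origins before the helicase is loaded, measured 11.5 to 18.4 CPM in embryonic and 3.64 to 11 CPM in mature libraries, and 58.6% of its level remained. Its log2 fold change in mature against embryonic retina was -0.72 ± 0.14 (SE, adjusted p = 3.4e-05). Orc6 kept 26.0%, and its log2 fold change was -1.79 ± 0.15 (adjusted p = 1.2e-12). The ratio of Orc6 to Orc1 fell by 1.04 on the log2 scale between embryonic and mature libraries (exact permutation test over 6 and 14 libraries, two-sided, p = 1.0e-04, adjusted over 10 pairs 1.7e-04). Of Orc1's exon bases, 10.8% lie over a transcript on the other strand, Gm12743, and 6.9% of those of Orc6 over Vps35.

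The 6 subunits of the helicase ring all fell and were among the members with the highest embryonic levels per length. At E14 they ranged from 86.2 ± 5.68 CPM (SD, n = 3) for Mcm5 to 145 ± 9.34 CPM (n = 3) for Mcm2. Per kilobase of exon, embryonic levels of the 6 lay between 18.6 CPM for Mcm2 and 32.0 CPM for Mcm4. In mature retina they had spread to between 0.408 CPM per kilobase for Mcm3 and 2.34 for Mcm4. The spread among the 6 was thus wider, in proportion, in mature than in embryonic retina.

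Mcm3 fell the furthest of the ring. It measured 103, 101 and 98.9 CPM at E14, 81.1, 85.2 and 82.4 CPM at E17, and 65.9, 62.4, 63.4 and 63.5 CPM at P1. At P6 it measured 2.40, 4.43 and 2.34 CPM, and at P15 1.07, 0.527, 0.730 and 1.10 CPM. The groups of the 5 ages did not overlap, and the mean was lower at each age up to P15. The log2 fold change was -4.03 ± 0.22 (SE) at P6 against P1 (adjusted p = 6.6e-16) and -1.10 ± 0.22 at P15 against P6 (adjusted p = 2.1e-04). In mature retina 1.66% of the embryonic level was left.

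Mcm5 kept 2.35%, Mcm6 2.78%, Mcm2 4.36%, Mcm4 7.30% and Mcm7 9.74% of the embryonic level. Mcm7 fell the least at P6, where its 3 libraries measured 23.6, 24.1 and 22.8 CPM against 82.4 to 86.7 CPM at P1, and it fell again to 7.11 to 8.64 CPM at P15. Its log2 fold change was -1.80 ± 0.16 (SE, adjusted p = 9.7e-11) at the first of these steps and -1.44 ± 0.16 (adjusted p = 2.3e-08) at the second. All 6 subunits were called lower at both steps. Mcm7 hosts Mir25, Mir93 and Mir106b and shares 7.3% of its exon bases with Ap4m1 on the other strand.

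The genes of helicase activation took 3 different courses. Gins1, a subunit of the GINS complex that binds the activated helicase, measured 17.1 to 18.3 CPM at E14, 1.08 to 1.55 CPM at P6 and at most 0.395 CPM at P15, where 2 of 4 libraries had 0 reads. Its log2 fold change in mature against embryonic retina was -3.66 ± 0.13 (SE, adjusted p = 7.6e-22).

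Mcm10, a scaffold between the helicase and polymerase alpha, fell and then rose. It measured 68.6, 62.9 and 66.0 CPM at E14, 52.4, 53.7 and 58.1 CPM at E17, and 44.2, 38.1, 41.3 and 37.1 CPM at P1. At P6 the 3 libraries measured 2.54, 2.38 and 1.65 CPM. At P15 they measured 10.8, 5.79, 6.81 and 6.32 CPM, at P28 9.19, 11.1, 14.2 and 14.2 CPM, and at P60 11.4 to 21.2 CPM with a median of 17.9 CPM. Every P15 library exceeded every P6 library, and every P60 library exceeded every P15 library. The P60 mean was 769% of the P6 mean and 25.6% of the E14 mean. The log2 fold change was -3.70 ± 0.19 (SE) at P6 against P1 (adjusted p = 7.7e-17), 1.38 ± 0.19 at P15 against P6 (adjusted p = 6.0e-07) and 1.08 ± 0.16 at P60 against P15 (adjusted p = 1.0e-05). These calls held in the 10 other fits and without any 1 library. Mcm10 lies on chromosome 2 at 4989714 to 5012791, minus strand, and no other annotated exon overlaps its exons, which sum to 7692 bases.

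Gins2, another GINS subunit, was not called at P6. It measured 84.6, 91.6, 83.8 and 87.4 CPM at P1 and 70.8, 80.2 and 80.0 CPM at P6, with every P6 library under every P1 library and a log2 fold change of -0.17 ± 0.11 (SE, 95% interval -0.39 to 0.05, adjusted p = 0.22), then 46.5 to 49.5 CPM at P15. It kept 65.0% in mature retina. Of its exon bases 67.3% lie over Gse1, a gene on the other strand that measured 215 ± 23.6 CPM (SD, n = 4) at P1, 233 ± 9.02 CPM (n = 3) at P6 and 159 ± 17.1 CPM (n = 4) at P15. The strand setting of the counting is not given, so reads of the pair cannot be told apart.

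**Figure D3:**
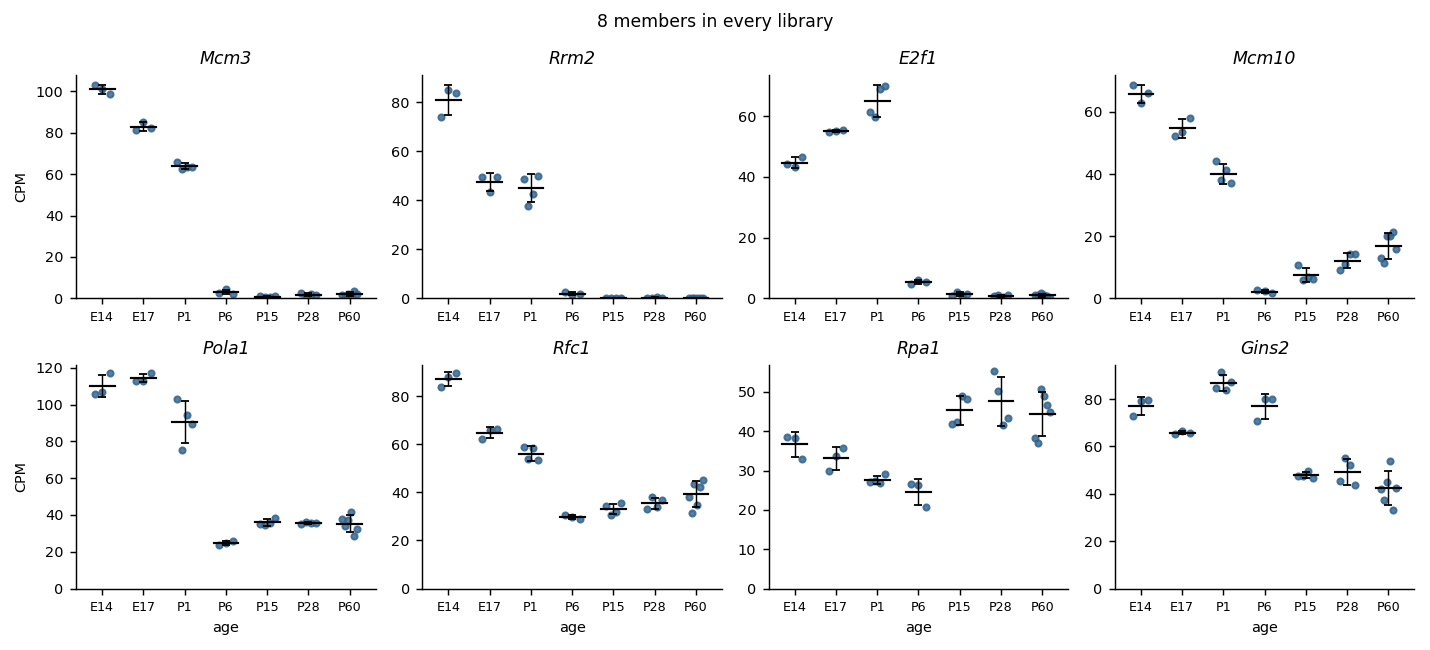
CPM of 8 members in every library (blue points), with the mean (black line) and SD (error bar) at each age, on axes that start at 0. Mcm10 was lowest at P6 (1.65 to 2.54 CPM) and reached 11.4 to 21.2 CPM at P60, and Rpa1 at P15, P28 and P60 lay above its P6 libraries.

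All 6 polymerase and primase genes were at least 2-fold lower in mature retina. Pole, the catalytic subunit of the leading strand polymerase epsilon, measured 93.8, 99.8 and 109 CPM at E14, 66.4 to 70.7 CPM at P1, 5.37, 5.41 and 5.52 CPM at P6 and 1.84 to 3.57 CPM at P15. Its log2 fold change was -3.45 ± 0.25 (SE, adjusted p = 5.4e-13) at P6 against P1, and 3.39% remained in mature retina. Pold1, the catalytic subunit of polymerase delta, which acts on the lagging strand and in repair synthesis, measured 30.8 to 37.5 CPM at E14, 2.76 to 4.24 CPM at P6 and 5.02 to 7.83 CPM at P60, and 15% remained. The log2 ratio of Pold1 to Pole was -1.62 ± 0.17 (SD, n = 6) in embryonic and 0.45 ± 0.71 (n = 14) in mature libraries, without overlap (exact permutation test, two-sided, p = 5.2e-05, the smallest these group sizes allow, adjusted 1.0e-04).

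Of polymerase alpha, which begins each strand, the catalytic subunit Pola1 measured 106, 107 and 117 CPM at E14 and 75.3 to 103 CPM at P1. It was lowest at P6, at 23.6, 24.9 and 25.8 CPM, and lay between 34.5 and 38.3 CPM at P15. The rise from P6 to P15 had a log2 fold change of 0.52 ± 0.10 (SE, adjusted p = 1.7e-04), with no overlap between libraries, and P28 and P60 means stayed within 35.2 to 35.5 CPM. Pola1 lies on the X chromosome, and 5 of the 6 embryonic libraries and P1 library 3 held Xist at 112 CPM or more. Its partner Pola2 fell over the same interval, from 9.41 to 10.2 CPM at P6 to 4.26 to 5.76 CPM at P15, a log2 fold change of -0.86 ± 0.14 (adjusted p = 1.2e-05). In mature libraries the log2 ratio of Pola1 to Pola2 was 0.60 higher (exact permutation test, two-sided, p = 0.0027, adjusted 0.003).

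The primase subunits kept 11.9% (Prim1, catalytic) and 21.2% (Prim2, regulatory) of the embryonic level. Prim1 fell from 24.1 to 31.3 CPM at P1 to 2.90 to 4.24 CPM at P6, and Prim2 from 38.7 to 43.3 CPM to 13.5 to 17.1 CPM. The log2 ratio of Prim1 to Prim2 was -0.68 ± 0.17 (SD, n = 6) in embryonic and -1.29 ± 0.38 (n = 14) in mature libraries (exact permutation test, two-sided, p = 0.0017, adjusted 0.0024).

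Pcna, the sliding clamp that tethers polymerases and many repair enzymes, measured 56.6 to 62.6 CPM at E14, 36.1 to 55.7 CPM at P1 and 7.49, 7.57 and 9.51 CPM at P6. From P6 on it stayed within 5.08 to 11.4 CPM, and no step after P6 was called. Its log2 fold change at P6 against P1 was -2.31 ± 0.18 (SE, adjusted p = 2.5e-12), and 15% remained in mature retina.

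The clamp loader did not move as a unit. Rfc1, its large subunit, measured 83.8, 87.9 and 89.6 CPM at E14, 62.4 to 66.3 CPM at E17, 53.3 to 58.9 CPM at P1 and 29.1, 29.8 and 30.4 CPM at P6. It then lay between 30.8 and 45.1 CPM in the mature libraries and kept 47.3%, with a log2 fold change of -1.05 ± 0.06 (SE, adjusted p = 1.2e-15). Rfc2 kept 46.2%, Rfc5 31.3%, Rfc3 18.3% and Rfc4 16.4%. Between Rfc1 and Rfc2 the log2 ratio was 1.46 ± 0.14 (SD, n = 6) in embryonic and 1.47 ± 0.25 (n = 14) in mature libraries, a difference of 0.01 (exact permutation test, two-sided, p = 0.9). Of the small subunits, 3 share exon bases with a gene on the other strand, Rfc2 with Lat2 (15.1%), Rfc4 with Eif4a2 (12.7%) and Rfc5 with Wsb2 (10.7%).

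Of the single-strand binding protein, Rpa2 fell at P6 and Rpa1 rose at P15. Rpa1, the large subunit that coats single-stranded DNA in replication and in repair, measured 38.5, 38.4 and 33.0 CPM at E14, 27.1, 27.4, 26.8 and 29.1 CPM at P1, and 26.7, 26.3 and 20.8 CPM at P6. At P15 it measured 41.8, 42.4, 48.9 and 48.1 CPM, above every earlier library, and it stayed between 36.9 and 55.2 CPM at P28 and P60. The log2 fold change was -0.17 ± 0.12 (SE, 95% interval -0.41 to 0.08, adjusted p = 0.29) at P6 against P1, 0.86 ± 0.12 (adjusted p = 8.5e-07) at P15 against P6 and 0.38 ± 0.08 (adjusted p = 4.7e-05) in mature against embryonic retina. Rpa2, the middle subunit, fell from 19.9 to 27.4 CPM at P1 to 6.2 to 8.22 CPM at P6 (-1.61 ± 0.19, adjusted p = 3.1e-08) and stayed between 4.22 and 10.4 CPM. The log2 ratio of Rpa1 to Rpa2 was 0.18 ± 0.12 (SD, n = 6) in embryonic and 2.54 ± 0.30 (n = 14) in mature libraries, without overlap (exact permutation test, two-sided, p = 5.2e-05, adjusted 1.0e-04).

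On the lagging strand, Fen1 removes the primer flap and Lig1 seals the nick. Fen1 measured 30.9 to 34.2 CPM at P1 and 7.86 to 8.44 CPM at P6, and Lig1 49.4 to 60.8 CPM and 13.3 to 14.8 CPM. The log2 fold changes at this step were -1.88 ± 0.12 (SE, adjusted p = 2.6e-14) and -1.91 ± 0.15 (adjusted p = 2.4e-12). In mature retina 19.8% of Fen1 and 15.2% of Lig1 remained, and the log2 ratio of Lig1 to Fen1 was 1.13 ± 0.13 (SD, n = 6) in embryonic and 0.68 ± 0.29 (n = 14) in mature libraries (exact permutation test, two-sided, p = 0.0021, adjusted 0.0026). Of Fen1's exon bases 78.8% lie over an antisense transcript, Gm10143, which measured 30.6 ± 1.67 CPM (SD, n = 4) at P1 and 8.19 ± 0.494 CPM (n = 3) at P6, and reads of the pair cannot be told apart.

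Rrm2 showed the deepest fall of the 37. It encodes the small subunit of ribonucleotide reductase, the enzyme that makes deoxynucleotides in S phase. It measured 73.9, 84.8 and 83.9 CPM at E14, 49.4, 43.2 and 49.5 CPM at E17 and 2.40, 1.19 and 1.93 CPM at P6. The P1 mean was 44.8 ± 5.72 CPM (SD, n = 4). At P15 it had 0 reads in all 4 libraries, where 3 reads per library would be 0.394 CPM on average, so the embryonic mean was at least 163-fold higher. At P28 it measured 0.126 to 0.541 CPM, and at P60 5 of 6 libraries had 0 reads. Its large partner Rrm1, which also serves the p53-induced subunit Rrm2b, measured 209 to 218 CPM at E14, 150 to 179 CPM at P1, 32.1 to 41.5 CPM at P6 and 17.4 to 27.8 CPM in mature libraries, and 12.5% remained. Between Rrm1 and Rrm2 the log2 ratio was 2.93 higher in mature libraries (exact permutation test, two-sided, p = 5.2e-05, adjusted 1.0e-04), a value that the pseudocount limits since Rrm2 was at or near 0.

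Thymidylate synthase (Tyms) makes thymidylate from deoxyuridylate, and thymidine kinase 1 (Tk1) salvages thymidine. Tyms measured 58.5 to 71.9 CPM at P1 and 14.4 to 17.1 CPM at P6, and 19.8% remained in mature retina. Tk1 measured 29.3 ± 1.08 CPM (SD, n = 4) at P1, above its 22.8 ± 2.04 CPM (SD, n = 3) at E17, though that difference was not called (log2 fold change 0.35 ± 0.18, SE, adjusted p = 0.27). It fell to 7.77 to 11 CPM at P6 and kept 39.6%. Both were called lower at P6 against P1, with log2 fold changes of -1.98 ± 0.16 (adjusted p = 7.5e-12) and -1.60 ± 0.18 (adjusted p = 7.3e-09).

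The listed subunits of chromatin assembly factor 1, which deposits histones on new DNA, parted. Chaf1b measured 14.9 to 18.8 CPM at P1, 0.138 to 1.30 CPM at P6 and at most 0.666 CPM in any mature library, a mature level of 1.90%. Chaf1a measured 88.6 to 101 CPM at P1, 48.8 to 53.1 CPM at P6 and 36.5 to 74.6 CPM in mature libraries, 42.8%. The log2 ratio of Chaf1a to Chaf1b was 2.73 ± 0.19 (SD, n = 6) in embryonic and 5.25 ± 0.49 (n = 14) in mature libraries, without overlap (exact permutation test, two-sided, p = 5.2e-05, adjusted 1.0e-04). The pseudocount limits the mature ratio, since Chaf1b was near 0 there. Of Chaf1a's exon bases 52.5% lie over Ubxn6 on the other strand, which measured 49.4 ± 4.18 CPM (SD, n = 4) at P1 and 43.9 ± 2.71 CPM (n = 3) at P6, and the reads of the pair cannot be told apart.

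E2f1, an activating member of the E2F family, took its own course before the fall. It measured 44.3, 43.3 and 46.6 CPM at E14, 54.8, 55.2 and 55.3 CPM at E17, and 61.2, 59.6, 69.0 and 69.9 CPM at P1. The groups did not overlap, and the P1 mean was 145% of that at E14, although neither step was called (log2 fold changes 0.30 ± 0.22, SE, adjusted p = 0.53, and 0.23 ± 0.21, adjusted p = 0.63). In the fit of the compared ages alone the first step was called (adjusted p = 0.0046). At P6 E2f1 measured 4.66, 6.16 and 5.52 CPM, a log2 fold change of -3.36 ± 0.21 (adjusted p = 1.1e-14), and in mature libraries 0.245 to 2.24 CPM, 2.14% of the embryonic level.

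**Figure D4:**
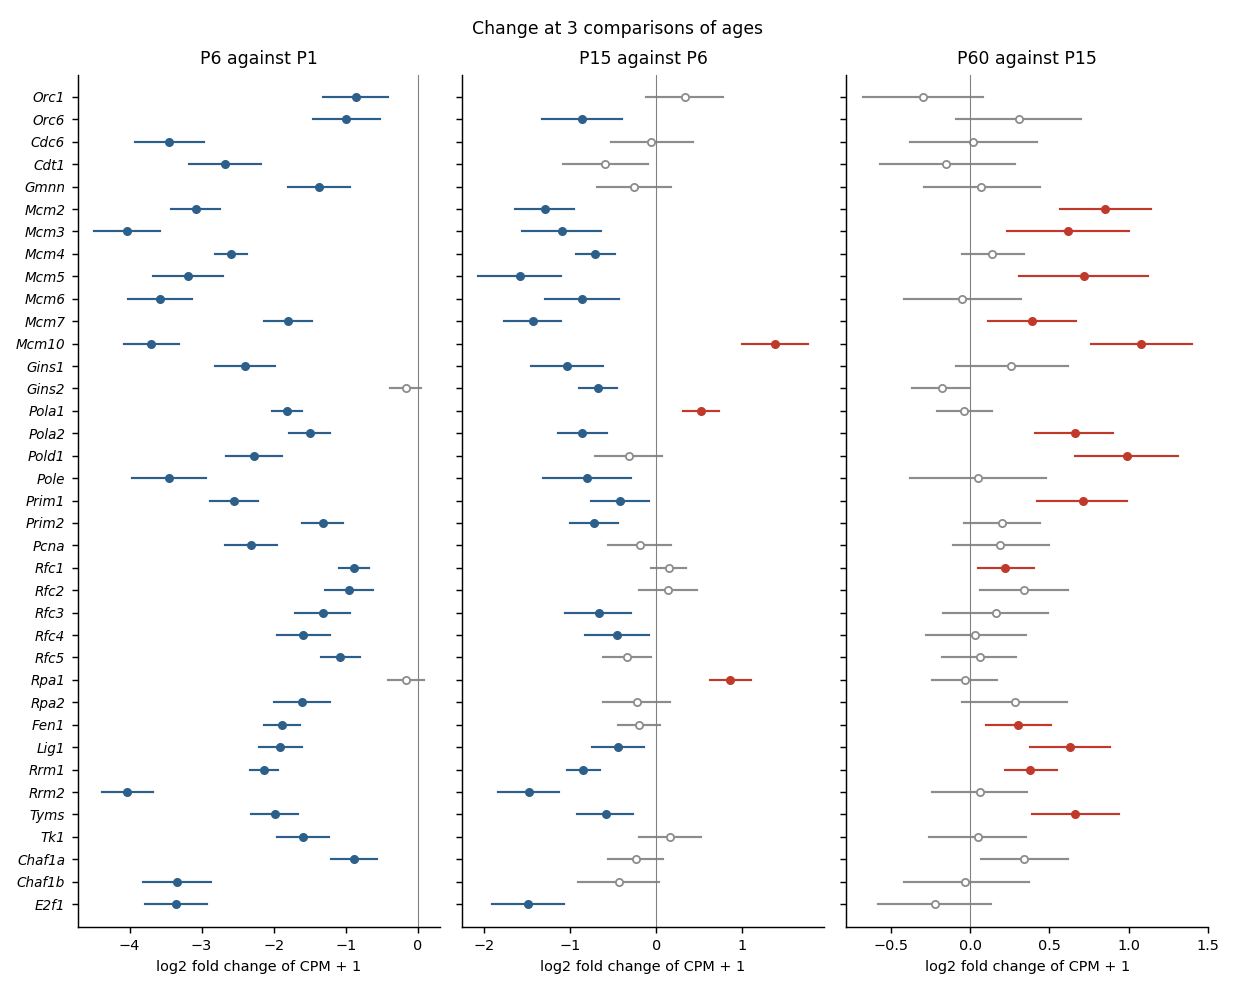
Log2 fold change of CPM + 1 with its 95% interval for each member at P6 against P1, P15 against P6 and P60 against P15 (limma, all 27 libraries). Blue is called lower, red higher, and grey open points are not called at an adjusted p of 0.05; 35, 20 and 0 members are blue and 0, 3 and 13 are red.

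The last comparison asked whether the low levels held through maturity. From P15 to P28, 2 members rose (Mcm10 and Rrm1) and 0 fell by limma, where 1.14% of features were called higher and 1.58% lower, and both calls rested on single libraries. The count without P15 library 2 or P28 library 2 was 0, and without P15 library 1 or 3 or P28 library 1 or 3 it was 1, and without P60 library 2, 3 or 6 it was 3, and without P60 libraries 3 to 6 together it was 5. From P28 to P60, 5 members rose (Mcm7, Pola2, Pold1, Prim1 and Fen1), where 4.80% of features were called higher and 8.11% lower. This count was unstable: without P28 library 4 it was 0, without P28 library 1 or 3 or any of P60 libraries 3 to 6 it was 1, without P60 library 1 it was 8 and without P60 library 2 it was 9. Without any 1 of the E14, E17 or P1 libraries, P6 library 1 or 2, P15 library 1 or P28 library 2 it was 2, without P6 library 3 or P15 library 3 it was 3, and without P15 library 4 it was 7. Without P60 libraries 1 and 2 together it was 10, and without 3 to 6 it was 0. For these fits with libraries left out the shares of all features called are not given here, so the counts cannot be set against them.

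From P15 to P60, 13 members rose and 0 fell, where 10.1% of features were called higher and 18.0% lower. In 6 members every P60 library lay above every P15 library, against 4.16% of features. The 13 were Mcm2, Mcm3, Mcm5, Mcm7, Mcm10, Pola2, Pold1, Prim1, Rfc1, Fen1, Lig1, Rrm1 and Tyms, and 8 of them were called in the 10 other fits and without any 1 library (Mcm2, Mcm10, Pola2, Pold1, Prim1, Lig1, Rrm1 and Tyms). Without P60 libraries 1 and 2, 15 members were called higher and Orc1 lower (log2 fold change -0.54, adjusted p = 0.0098), and without libraries 3 to 6, 10. The shares of all features called in these 2 fits are not given here. Mcm7 measured 9.31 and 6.34 CPM in P60 libraries 1 and 2 and 10.6 to 15.9 CPM in libraries 3 to 6, and without the latter its log2 fold change was -0.05. Mcm2 measured 2.94, 3.16, 3.65 and 5.36 CPM at P15 and 6.3 to 9.19 CPM at P60 with a median of 7.23 CPM, a log2 fold change of 0.85 ± 0.14 (SE, adjusted p = 5.6e-05). Pold1 measured 2.20 to 3.42 CPM and 5.02 to 7.83 CPM, a log2 fold change of 0.99 ± 0.16 (adjusted p = 4.5e-05). Prim1 measured 1.98 to 3.29 CPM and 3.80 to 5.91 CPM, a log2 fold change of 0.71 ± 0.14 (adjusted p = 4.1e-04). The P60 means of these 3 stayed at 5.21%, 18.4% and 15.9% of E14. Of the 10 members at or under 3.81% of their E14 level at P60, Mcm3 and Mcm5 were called higher, and Cdc6, Cdt1, Mcm6, Gins1, Pole, Rrm2, Chaf1b and E2f1 were not called.

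Among markers of division, Top2a was higher at P60 than at P15 and P28, and Mki67 than at P28 only. Reads per P60 library were few and uneven, at 2 to 40 for Mki67 and 3 to 19 for Top2a. These ranges cover all 6 P60 libraries, and libraries 1 and 2 were not set apart from 3 to 6 for them. Cdk1, the mitotic kinase, measured 0 to 0.137 CPM in the mature libraries. Mki67, a marker of cycling cells, measured 0.550 to 1.46 CPM at P15 and 0.282 to 4.42 CPM at P60 (log2 fold change 0.69 ± 0.27, SE, adjusted p = 0.051), and Top2a 0.132 to 0.730 CPM and 0.393 to 2.61 CPM (0.57 ± 0.16, adjusted p = 0.011). Against P28, Mki67 was higher at P60 by 1.30 ± 0.27 (adjusted p = 0.0052) and Top2a by 0.82 ± 0.16 (adjusted p = 0.0042) on the log2 scale. At P15 and P60, summed microglial markers were 11.5 to 15.7 CPM and 5.02 to 11.1 CPM. Endothelial markers summed to 136 to 161 CPM and 120 to 142 CPM, and astrocyte markers to 12.0 to 21.6 CPM and 12.2 to 20.1 CPM. The endothelial sum was mostly Kdr, which was not called at P60 against P15 (log2 fold change -0.05, limma, adjusted p = 0.59). Pecam1 (-0.73, adjusted p = 0.003) and Cldn5 (-1.6, adjusted p = 2.1e-05) were lower. Of the astrocyte markers, Pdgfra was lower (-0.42, adjusted p = 0.029) and Gfap was not called (0.42, adjusted p = 0.25). The part of cycling or other cells in the rise was not tested.

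The summed level of the members was low from P6 on. The 37 members summed to 2322.9 to 2335.3 CPM at E14, 1905.8 to 1972.1 CPM at E17, 1704.5 to 1835.8 CPM at P1, 460 to 479 CPM at P6, 364 to 386 CPM at P15, 400 to 423 CPM at P28 and 387 to 496 CPM at P60. That was 20.2% of the E14 sum at P6 and 19.2% at P60. The division markers Mki67 and Top2a stood at 3.01% and 1.89% of their E14 means at P6 and at 0.121% and 0.151% at P60.

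Other genes of the pathway had a smaller median change. Of 39 further replication genes, 34 were lower and 0 higher in mature against embryonic retina, 26 of them at least 2-fold, with a median log2 fold change of -1.41, where 40.4% of features were called lower and 16.1% at least 2-fold lower. At P6 against P1, 32 of the 39 were lower and 0 higher, where 20.4% and 18.0% of features were. The largest changes were in Ticrr, which helps recruit Cdc45 to the helicase, at 79.7 CPM in embryonic and 0.236 CPM in mature retina (log2 fold change -6.03 ± 0.10, SE, adjusted p = 2.3e-30), the checkpoint mediator Clspn (-5.52 ± 0.14, adjusted p = 2.1e-26) and Dbf4, the activator of the Cdc7 kinase (-4.93 ± 0.11, adjusted p = 1.9e-27). The smallest were in Donson (-0.10 ± 0.07, adjusted p = 0.22), Orc3 (-0.06 ± 0.08, adjusted p = 0.52) and Chtf18 (-0.05 ± 0.13, adjusted p = 0.75). Orc3 measured 178 CPM in embryonic and 174 CPM in mature retina, beside a kept share of 26.0% for Orc6 and 58.6% for Orc1.

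Of 14 S phase cyclin and kinase genes and E2F and pocket protein genes, 12 were lower and 1 higher in mature retina, with a median log2 fold change of -1.17, beside 40.4% and 35.0% of all features. The one that rose was Rbl2, a pocket protein gene (1.05 ± 0.05, SE, adjusted p = 9.5e-18). The repressor E2f8 went from 66.3 to 0.0656 CPM (-5.98 ± 0.10, SE, adjusted p = 1.1e-30), E2f7 from 91.7 to 0.909 CPM (-5.62 ± 0.12, adjusted p = 1.2e-27) and the activator E2f2 from 20.9 to 0.643 CPM (-3.77 ± 0.14, adjusted p = 3.0e-21), beside 49.9 and 1.07 CPM for E2f1. The retinoblastoma gene Rb1 measured 74.7 and 68.3 CPM (-0.13 ± 0.06, adjusted p = 0.061), E2f4 31.6 and 25.2 CPM (-0.34 ± 0.10, adjusted p = 0.0023) and E2f5 36.2 and 26.3 CPM (-0.45 ± 0.07, adjusted p = 2.0e-06).

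Nucleotide genes that serve cells outside S phase were for the most part not called. Of 5, 1 was lower (Dck, log2 fold change -1.40 ± 0.11, SE, adjusted p = 1.3e-12) and 1 higher (Rrm2b, 0.30 ± 0.10, adjusted p = 0.011), and the median was 0.12. Of all features, 40.4% were called lower and 35.0% higher in mature against embryonic retina. Rrm2b, the small reductase subunit of resting cells, measured 15.8 CPM in embryonic and 19.9 CPM in mature retina. Tk2, the mitochondrial thymidine kinase, measured 11.3 and 13.3 CPM (0.20 ± 0.11, adjusted p = 0.11), Dguok 11.9 and 13.1 CPM (0.12 ± 0.11, adjusted p = 0.32) and Samhd1, which degrades deoxynucleotides, 38.8 and 36 CPM (-0.13 ± 0.09, adjusted p = 0.19).

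Of 15 repair polymerases, ligases and scaffolds, 8 were lower and 2 higher in mature retina, with a median log2 fold change of -0.42, beside the 40.4% of all features called lower and 35.0% higher. The nuclease Apex1 (-2.08 ± 0.09, SE, adjusted p = 4.4e-19), the polymerase Polq (-2.02 ± 0.07, adjusted p = 1.8e-22) and Parp1 (-1.70 ± 0.08, adjusted p = 3.1e-18) changed the most. Polb, the short-patch repair polymerase, measured 21.4 and 24.6 CPM (0.19 ± 0.09, adjusted p = 0.051), Poli 21.6 and 19.3 CPM (-0.16 ± 0.08, adjusted p = 0.085) and Rev1 57.5 and 59.6 CPM (0.04 ± 0.05, adjusted p = 0.48). The summed level of the 15 went the other way from their median up to P15, at 127% of E14 at P6 and 122% at P15, and stood at 94.7% at P60.

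**Figure D5:**
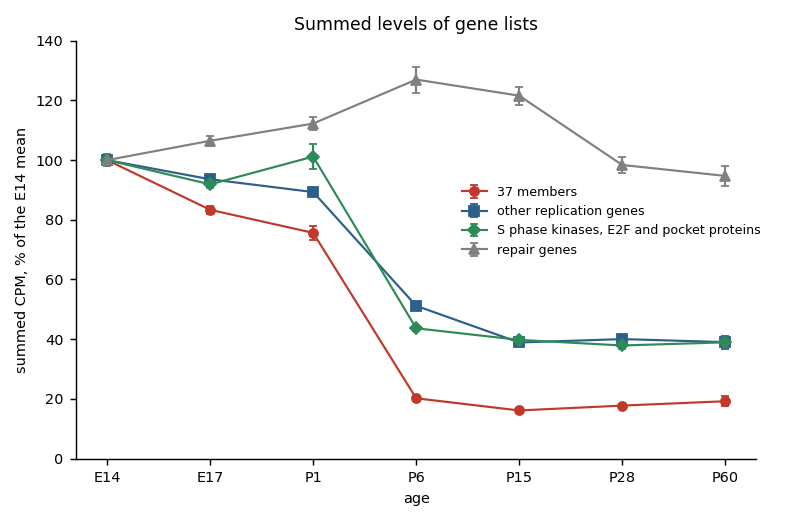
Summed CPM of the 37 members and of 3 other gene lists at each age, as a percentage of the E14 mean of each list, with the SD over libraries as error bars. At P6 the members stood at 20.2%, against 51.2% for 39 other replication genes and 127% for 15 repair genes.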

How the data were processed

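Single-end RNA-seq reads of whole retina had been aligned by the authors to the mouse genome with STAR, and mm10 (GRCm38) is the build named in the submitters' processing notes. The deposited values are CPM, reads scaled to one common library total, in a table of 38168 features by 27 libraries. The annotation behind the table and the strand setting of the counting are not given in the sources used here. Whole reads could be recovered from the CPM values (100% came out whole within 0.1 reads), and totals ran from 7077781 to 11332323 reads per library, so that 1 read was worth about 0.1 CPM. A count of 0 allows up to 3 reads, and this limit covers counting error only.

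The 37 members were taken by symbol, with the entry of highest mean where a symbol was repeated (2 members). Members and comparison lists were chosen with earlier results of these data known. All members are named, and of each other list the 3 genes with the largest and the 3 with the smallest absolute fold change. Log2(CPM + 1) values of the 31760 features that reached 1 CPM in 3 or more libraries were fitted with limma 3.58.1 in R 4.3.3 on the factor age, with a mean-variance trend. All p-values are two-sided, the Benjamini-Hochberg adjustment covers every feature tested, and a call needed an adjusted p under 0.05. Fold changes on this scale understate those of low genes. On simulated reads the fit recovered 198 to 200 of 200 changed genes among 31760, with 3 to 23 false calls. The median absolute log2 fold change there was 1.37 to 1.41. Recovery was not tested separately for smaller steps or for low genes. Log ratios of 10 subunit pairs were compared by exact permutation tests in Python 3.11.15 with scipy 1.17.1.

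Alternatives were another pseudocount, other filters on low values, a replicate block, edgeR 4.0.16 run on recovered reads, fits restricted to the ages compared, median-of-ratios scaling, a lower limit on the fold change, and the omission of each library in turn. EdgeR without the E14 library labelled 1 was added after seeing the data, because the step of that library is too close to a round decimal to be judged. Fits without P60 libraries 1 and 2, or 3 to 6, were also added, because counts of 1 and 2 stood apart from those of most of 3 to 6. Replicate numbers are those of the labels, and no duplicate libraries were found. Gene positions and exon lengths came from GENCODE M21 (GRCm38), and promoter windows from RefSeq (GRCm38.p6).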

Additional observations from a re-analysis of the deposited data

Results flagged for a closer look

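In 10 of 143 groups of 4 to 6 libraries of 1 age, the highest or lowest library of a member lay far from the others for the spread of its group. Chance flags about 1 in 20 such groups, or 7.2 of 143, so the number is near what chance gives. At P60, Orc6 measured 6.82 CPM in library 1 against 4.08 to 5.08 CPM in the others, Gins1 1.13 CPM in library 3 against 0 to 0.422 CPM, and Rrm1 27.8 CPM in library 4 against 25.7 to 26.3 CPM. At P28, library 3 was high for Pole, at 4.46 CPM against 2.77 to 2.95 CPM, and for Rrm2, at 0.541 CPM (4 reads) against 0.126 to 0.14 CPM. At P15, Cdt1 measured 1.58 CPM in library 3 against 0.669 to 0.79 CPM, and Prim2 6.6 CPM in library 4 against 9.9 to 10.2 CPM. At P1, Cdt1 measured 14.8 CPM in library 3 against 17.9 to 18.5 CPM, Pola2 34.5 CPM in library 2 against 28.2 to 28.8 CPM, and Pole 66.4 CPM in library 4 against 70.2 to 70.7 CPM. No library supplied more than 2 of the 10 at its age.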

How the results depend on the processing

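The calls of members at P6 against P1 and in mature against embryonic retina kept their side of the p threshold in the other fits in which they were tested and without any 1 library. The smaller steps depended on the setting. For the other fits, the share of all features called is given only for E17 against E14 with the compared ages alone (8.59% lower). Elsewhere a changed count of members cannot be set against that of all features. With only the compared ages in the fit, the count of members lower was 22 at E17 against E14 (3 in the fit of all ages) and 8 at P1 against E17 (2). The counts higher in that fit were 1 at E17 against E14 (0), 2 at P1 against E17 (1), 0 at P28 against P15 (2), 0 at P60 against P28 (5) and 8 at P60 against P15 (13). With a log2 fold change of at least 1 required, 0 members were lower at E17 against E14 and 0 at P1 against E17, and 7 at P15 against P6 (20). The counts higher under that limit were 0 at P1 against E17, 1 at P15 against P6 (3), 0 at P28 against P15, 0 at P60 against P28, 1 at P60 against P15 and 0 in mature against embryonic retina (1). With edgeR on the recovered reads, 1 member was higher at P28 against P15 and 8 at P60 against P28, and without the E14 library labelled 1 edgeR called 0 higher at P28 against P15. For P60 against P28, 2 members were higher with no filter on low values, and 1 was lower with a pseudocount of 0.1 (0). The Gmnn to Cdt1 difference was 0.57 with that pseudocount. Leaving out P60 libraries 1 and 2, or 3 to 6, was tried after seeing that their counts differed, though without a clean split. Without 1 and 2, 10 members were higher and 1 lower at P60 against P28, and 1 lower at P60 against P15. Without 3 to 6, 6 were lower at E17 against E14, 4 lower at P1 against E17, 5 higher at P28 against P15 and 0 higher at P60 against P28, and Mcm7 reversed, to log2 fold changes of -0.03 at P60 against P28 (0.41) and -0.05 at P60 against P15 (0.39). No other result reversed. Apart from what fewer libraries or a stricter limit bring by construction, the cause was not tested.

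Leaving out 1 library at a time gave 0 to 2 members lower and 0 to 1 higher at P1 against E17, 0 to 3 higher at P28 against P15, 0 to 1 lower and 0 to 9 higher at P60 against P28, and 0 to 1 lower at P60 against P15. With the replicate block, 0 members were higher at P60 against P28 and 10 at P60 against P15. Same-numbered libraries of different ages did not deviate together (median correlation -0.002 over 69 pairs, 3 of them over 0.1), so the numbers were not taken to pair the samples. Depth limits members near 0 in mature retina: a library with 0 reads allows up to 0.424 CPM at the shallowest.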
